A study of Mus musculus with 8 samples.

Results

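The regions described here are H3K27me3 peaks that were called in mouse morulae after injection of Kdm6b mRNA (Kdm6bWT) and that lay close to, but not on, a peak called after injection of a mutant form of that mRNA (Kdm6bMUT). A Kdm6bWT peak on chromosomes 1 to 19 was taken when it shared 0 bases with every Kdm6bMUT peak and the nearest edges were at most 5000 bases apart. The rule found 1032 peaks among 4788 on the autosomes and 4991 in the whole list. Of the other autosomal Kdm6bWT peaks, 2402 touched a Kdm6bMUT peak and 1354 lay farther away than 5000 bases. Members were chosen by the measured peak positions of both lists, so their distance from a Kdm6bMUT peak and their lack of overlap are a description and not a finding.

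The series holds 8 samples, of which the 2 ChIP-seq libraries for H3K27me3 in morulae and the peak list of each against input are used here. Oocytes came from 8-week-old superovulated BDF1 females, and the embryos carry the strain tag BDF1xPWK, which marks hybrids of BDF1 mothers and PWK fathers obtained by in vitro fertilization. Both groups received injected mRNA at 1.8 µg/µl, started 2.5 hours after fertilization and completed by 4 hours, so they differ in the form of Kdm6b supplied. Both input libraries carry a tag for no injection, whereas their titles name an injection. Each injection has 1 ChIP library, so no test between the groups is possible and every comparison below rests on the peak lists of these 2 libraries. How many embryos went into each ChIP library is not stated in the labels. The lists carry no read counts, so the depth of either library is unknown, and a deeper library yields a longer list.

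H3K27me3 is trimethylation of lysine 27 on histone H3, a mark of repressed chromatin that Polycomb repressive complex 2 writes and that Kdm6b (also called JMJD3) removes. In the mouse oocyte the mark spreads over broad stretches outside active genes, and much of this maternal pattern is carried through the cleavage stages. At a set of loci, Xist among them, it silences the maternal copy and serves as an imprint that does not need DNA methylation. A broad-peak caller can draw such a stretch as a string of peaks with gaps where the enrichment falls below its limit. Whether these lists were called in this way is not stated in the labels. A Kdm6bWT peak beside a Kdm6bMUT domain can lie in a gap between neighbouring peaks, past the end of a string, or next to a peak that stands alone. The word domain is used below for a Kdm6bMUT peak.

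Kdm6bWT peak coverage was highest on domains and lower at each further distance class up to 50 kb from their edges. Kdm6bWT peaks covered 5.91 kb per Mb of domain sequence. Off the domains they covered 3.89 kb per Mb within 500 bases of an edge, 3.30 kb per Mb from 500 to 1000 bases, 2.18 kb per Mb from 1000 to 2000 bases and 1.50 kb per Mb from 2000 to 5000 bases. The level was 1.02 kb per Mb from 5000 to 10000 bases, 0.730 kb per Mb from 10000 to 20000 bases and 0.525 kb per Mb from 20000 to 50000 bases. It was 0.589 kb per Mb from 50000 to 100000 bases, a small rise, and 0.388 kb per Mb beyond 100000 bases. The autosomes as a whole had 1.40 kb per Mb. The zone of the members therefore lay between the level on domains and that far away, with no step at the limit of 5000 bases. These values count all autosomal Kdm6bWT peaks and do not use membership. Close to an edge they include the overhang of peaks that touch a domain, and members supplied 0.977 of the 3.89 kb per Mb in the first 500 bases but 1.47 of the 1.50 kb per Mb from 2000 to 5000 bases.

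In each distance class up to 5000 bases from an edge, gaps inside strings of domains held more Kdm6bWT coverage than the sequence outside them. Domains no more than 10000 bases apart were joined into a run, and a gap is the sequence between neighbouring domains of a run. Within 500 bases of an edge, Kdm6bWT peaks covered 4.17 kb per Mb in gaps and 2.71 kb per Mb outside. From 500 to 1000 bases the values were 3.66 and 2.06 kb per Mb, from 1000 to 2000 bases 2.47 and 1.69 kb per Mb, and from 2000 to 5000 bases 2.13 and 1.23 kb per Mb. Gaps were thus ahead in each of the 4 distance classes. Distances are matched only to the class, and within a class they can differ between gaps and outside. Moved lists and floors on peak strength are not given for this coverage. Counting members alone leaves out overhang. Within 500 bases of an edge members covered 1.07 kb per Mb in gaps and 0.580 kb per Mb outside. From 500 to 1000 bases the values were 2.11 and 1.31 kb per Mb. From 1000 to 2000 bases they were 2.21 and 1.56 kb per Mb, and from 2000 to 5000 bases 2.07 and 1.22 kb per Mb. Pooled over all distances up to 5000 bases, which mixes these classes, the coverage was 1.80 kb per Mb in gaps and 1.24 kb per Mb outside.

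**Figure D1:**
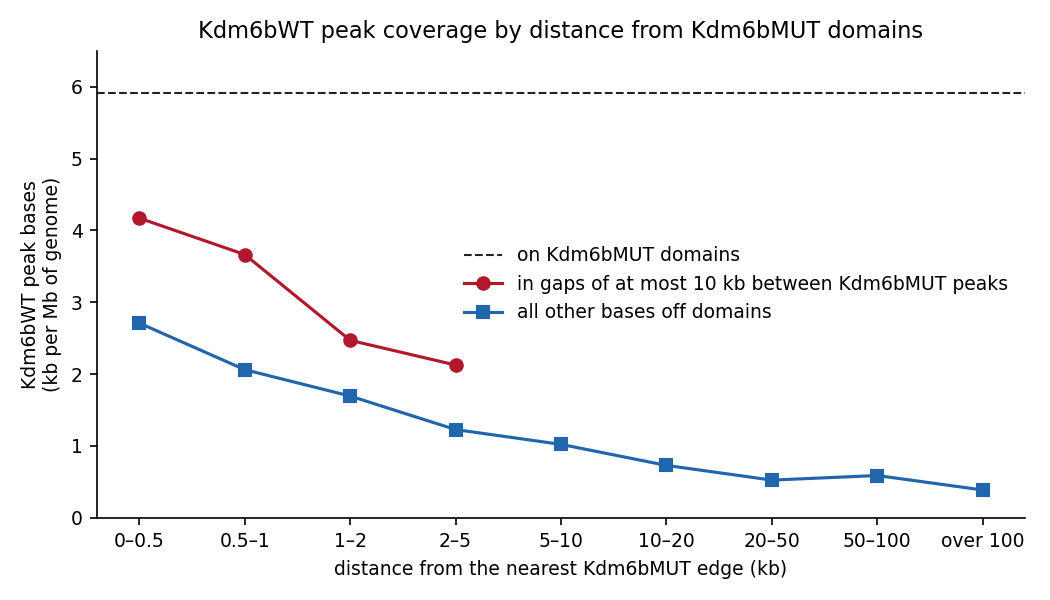
Kdm6bWT peak bases per Mb of genome (vertical axis, kb per Mb) against distance from the nearest Kdm6bMUT edge (horizontal axis, kb, classes of unequal size), on the 19 autosomes. Red points are bases in gaps of at most 10 kb between Kdm6bMUT peaks, blue squares all other bases off domains, and the dashed line the level on domains, 5.91 kb per Mb. Gaps lie above the other bases in each distance class they share, and the blue line falls from 2.71 to 0.388 kb per Mb with 1 small rise, at 50 to 100 kb.

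The share of Kdm6bWT peaks beside domains was set against the same list moved along the chromosomes. All autosomal Kdm6bWT peaks were moved together by 20, 50, 100 or 200 kb to either side, which gave 8 moved lists that keep widths and spacing. The moved lists do not keep the density of domains. Their mean share of peaks on domains fell from 36.9% at 20 kb to 21.2% at 200 kb. In place, 21.6% of autosomal Kdm6bWT peaks were beside a domain (95% exact binomial interval 20.4% to 22.7%), and in the moved lists the share ran from 17.6% to 26.6% with a mean of 22.1%. As a part of the whole list, the share in place thus lay inside the range of the moved lists. It was below the lists moved by 20 or 50 kb and above those moved by 100 or 200 kb. The classes around them did differ. The peaks on domains made up 50.2% in place and 20.8% to 37.2% after moves, and the peaks farther than 5000 bases 28.3% in place and 36.8% to 61.2% after moves. For each peak on a domain there were 0.430 beside one in place, against 0.691 to 0.865 after moves. Among only the peaks off domains, 43.3% (41.3% to 45.3%) were beside one in place and 22.5% to 41.9% after moves. This last order also depends on the length of the move, because moves of 10 kb gave 46.4%, above the value in place. Moved peaks can land on sequence where no read maps, and the moved lists are no replicates.

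**Figure D2:**
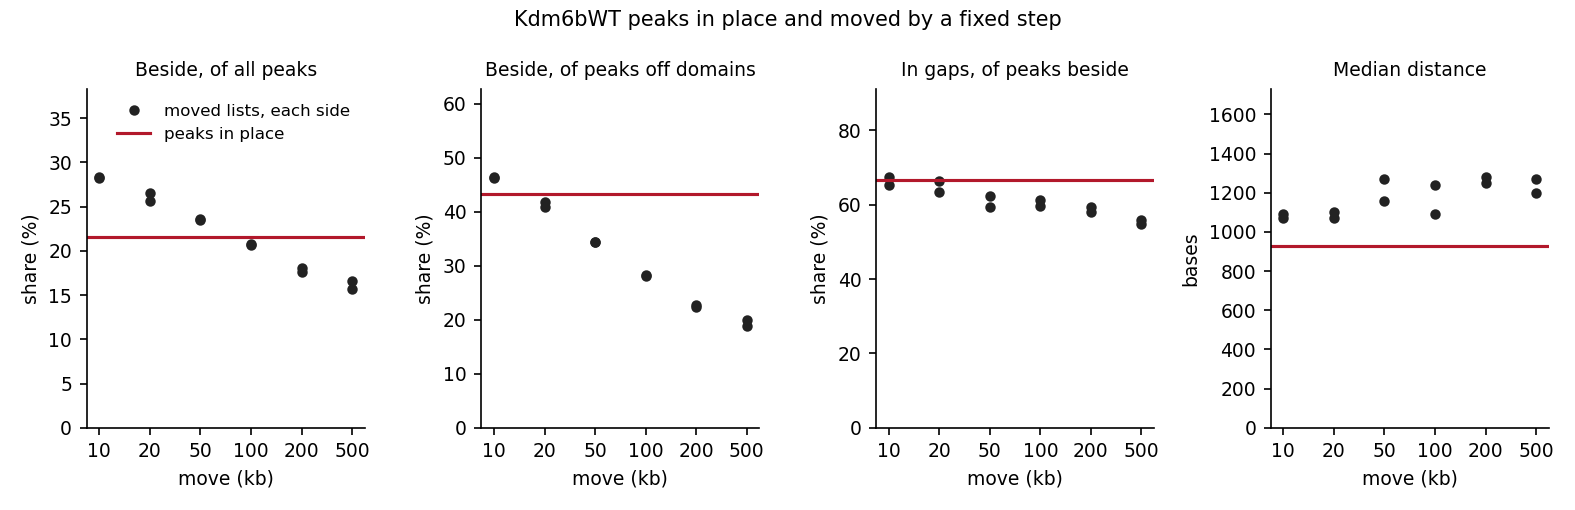
Autosomal Kdm6bWT peaks in place (red line) and moved by a fixed step (black points, 1 for each side; horizontal axis, kb, steps not to scale). The panels give the share of all peaks that were beside a domain, the share of peaks off domains that were beside one, the share of peaks beside domains that lay in gaps (all in %), and the median distance from the nearest edge (bases). The share of all peaks in place, 21.6%, is crossed by the moved lists between 50 and 100 kb, while the median distance in place, 926 bases, lies below every moved list.

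Most members lay near a domain edge. The median distance was 926 bases, with quartiles at 376 and 2070 bases, and 541 of 1032 members (52.4%) lay within 1000 bases. The count fell from 353 members in the first 500 bases to 188 in the next 500 and to 31 between 4500 and 5000 bases. In the moved lists the median distance of peaks beside domains ranged from 1071 to 1281 bases, and 42.3% to 48.5% lay within 1000 bases. The members were therefore nearer to an edge than the peaks of every moved list, with the excess in the first 500 bases, where 34.2% of members and 23.3% to 30.5% of moved peaks lay. Moves of 10 kb gave a median of 1083 bases. Members lay to the right of the nearest domain, towards higher coordinates, in 520 cases and to the left in 512, a share of 50.4% to the right (47.3% to 53.5%).

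The shorter distance did not hold once the weaker Kdm6bMUT peaks were left out. The Kdm6bMUT list reaches down to a −log10 p of 2.41 and the Kdm6bWT list to 3.67. When Kdm6bMUT peaks below 3.67 were left out, 40883 of 88804 autosomal domains remained. The peaks beside domains then had a median distance of 1700 bases, inside the 1693 to 1764 bases of the moved lists. Of the 1032 members, 621 still had a domain within 5000 bases and 411 did not. A further 358 peaks that had lain on a domain came to lie beside one. With domains at or above the median Kdm6bMUT score of 18, the median distance was 1637 bases in place and 1575 to 1725 bases after moves. A floor on the Kdm6bWT side left the order as it was. At or above the median Kdm6bWT score of 13 the median was 889.5 bases in place and 1127 to 1337 bases after moves.

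**Figure D3:**
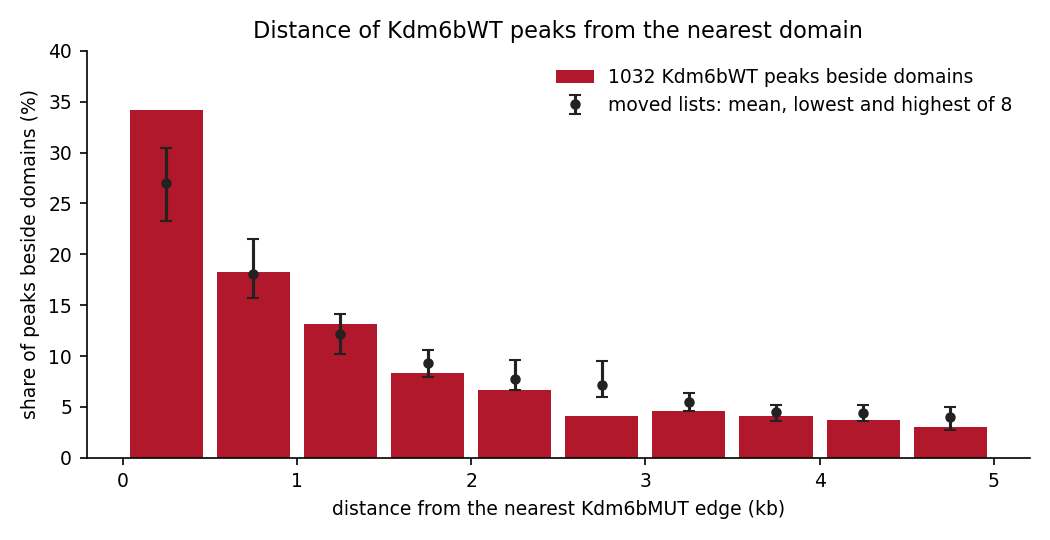
Share of peaks beside domains (vertical axis, %) in classes of 500 bases of distance from the nearest Kdm6bMUT edge (horizontal axis, kb). Bars are the 1032 members, and points with bars give the mean, lowest and highest of 8 moved lists. The first class holds 34.2% of members, above the 30.5% of the highest moved list, and the class from 2.5 to 3 kb holds 4.07%, below the 6.03% of the lowest.

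A distance of 1200 bases has a particular meaning in these lists, because neighbouring domains were never closer than 1201 bases and neighbouring autosomal Kdm6bWT peaks never closer than 1205 bases. Members within 1200 bases of a domain numbered 615, or 59.6%, against 47.7% to 52.8% in the moved lists. They lay nearer to a domain than any autosomal peak of either list lay to its neighbour in the same list. In 176 members, 17.1% of the total, a domain lay within 1200 bases on both sides, against 11.5% to 15.5% in the moved lists. Both distances of these peaks were below the smallest spacing seen within either list. The lists were not called together, so how a caller would have drawn such peaks was not tested. These shares are not given with the floors on the Kdm6bMUT side.

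Most members sat in a gap between domains rather than outside a run. Gaps held 689 members, or 66.8% (63.8% to 69.6%). Another 244 (23.6%) lay past the end of a run of at least 2 domains, and 99 (9.59%) lay beside a domain that stood alone. In the moved lists gaps held 58.1% to 66.4% of the peaks beside domains, so the share in place was just above the highest moved list, and 1 of the 2 lists moved by 10 kb exceeded it. With a floor at the median Kdm6bWT score it was 67.4%, inside the 58.6% to 68.0% of the moved lists. At the −log10 p floor of 3.67 on the Kdm6bMUT side the share in gaps was 39.0%, inside the 36.7% to 40.6% of the moved lists. Every Kdm6bWT peak off domains in a gap of at most 10000 bases is a member by construction, and the share in gaps rises with the gap that is joined, from 43.4% at 5000 bases to 81.5% at 20000 bases. The place also sets the distance. The median distance from the nearest domain was 615 bases in gaps, 2348 bases past run ends and 1944 bases beside domains that stood alone.

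The gaps that held a member were few and longer than the usual gap. Of 71932 autosomal gaps, 684 (0.951%) held a member, 679 of them 1 member and 5 of them 2. Gaps with a member had a median length of 3671 bases (quartiles 2141 and 6233), counted once per member, and all gaps a median of 2349 bases (quartiles 1592 and 4138). Long gaps held a member more often, from 0.516% of those up to 2000 bases (0.437% to 0.604%) to 1.90% of those from 7500 to 10000 bases (1.53% to 2.32%). Per Mb of gap there were 3.36 members in gaps of up to 2000 bases, 3.39 from 2000 to 3000 bases, 3.11 from 3000 to 5000 bases, 2.85 from 5000 to 7500 bases and 2.27 from 7500 to 10000 bases. In bases the members covered 1.66, 1.95, 1.95, 1.96 and 1.43 kb per Mb of these gaps, with the shortest and the longest gaps lowest. The gaps that moved peaks reached were longer still, with medians of 3903 to 4552 bases. Members in place thus used shorter gaps than moved peaks did at the authors' thresholds. Gap lengths are not given with the floors on the Kdm6bMUT side.

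Within a gap, members showed no lean towards an edge. The distance to the nearer domain was a median of 24.9% of the free length, where 0% would be against an edge and 50% in the middle, and moved peaks gave 24.2% to 26.4%. A member filled a median of 14.9% of its gap (quartiles 8.21% and 24.2%). In 37 gaps, 5.37% of the members in gaps, it filled at least 50%, and the highest share was 84.5%. The share of gaps with a member did not rise with the length of the run. A member lay in 1.04% of the gaps of runs of 2 to 4 domains (0.843% to 1.27%), in 0.897% of the gaps of runs of 10 to 19 domains (0.770% to 1.04%) and in 0.811% of those of 50 or more (0.599% to 1.07%), intervals that overlap. Counted per Mb of gap the values leaned the other way, with 2.63, 2.80, 2.86, 3.48 and 3.16 members per Mb in runs of 2 to 4, 5 to 9, 10 to 19, 20 to 49 and at least 50 domains.

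Members were narrow. Their median width was 443 bases (95% order-statistic interval 424 to 466; quartiles 300 and 841), against 584 bases (552 to 622) for Kdm6bWT peaks on domains and 419 bases (402 to 438) for peaks farther away. The smallest width of the list, 300 bases, was that of 270 members, or 26.2% (23.5% to 29.0%), of 19.3% (17.7% to 20.9%) of peaks on domains and of 30.0% (27.6% to 32.5%) of peaks farther away. Widths of at least 1000 bases occurred in 180 members (17.4%), in 28.8% of peaks on domains and in 19.8% of peaks farther away. No member was wider than 3363 bases.

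Moved lists showed a like difference between peaks on and off domains. Moved peaks beside domains had median widths of 449 to 475 bases, and 19.7% to 22.0% of them reached 1000 bases. Moved peaks that landed on domains had medians of 561.5 to 597 bases, a range that includes the 584 bases in place. Moved peaks farther away had medians of 440 to 475 bases, above the 419 bases in place. The members' median lay below every moved list at the authors' thresholds. With a floor at the median Kdm6bWT score it was 355.5 bases, inside the 350 to 361 bases of the moved lists, and at the −log10 p floor of 3.67 for domains it was 492 bases, inside their 479.5 to 513 bases. By place, the medians were 436 bases in gaps (417 to 460), 446.5 bases past run ends (407 to 522) and 525 bases beside domains that stood alone (399 to 652), with overlapping intervals.

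**Figure D4:**
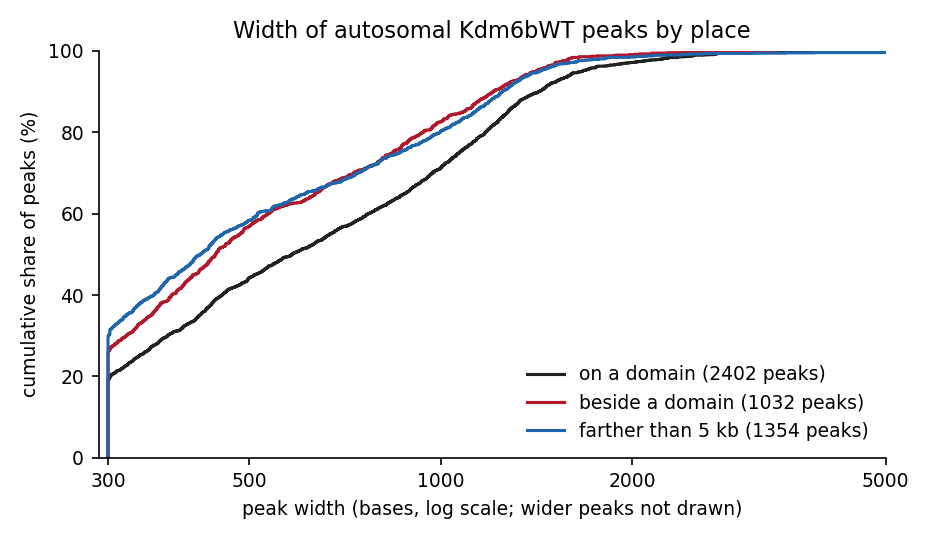
Cumulative share of autosomal Kdm6bWT peaks (vertical axis, %) by peak width (horizontal axis, bases, log scale) for peaks on a domain (black), beside one (red) and farther than 5 kb away (blue). The red and blue lines run close together with medians of 443 and 419 bases, and the black line lies below them over most of the range, with a median of 584 bases.

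The authors' fold and score of members were close to those of the other Kdm6bWT peaks, with overlapping intervals of the fold. The authors' fold enrichment over input had a median of 3.85 (3.82 to 3.89; quartiles 3.64 and 4.15) for members, 3.84 (3.82 to 3.86) for peaks on domains and 3.84 (3.81 to 3.86) for peaks farther away. The median score, which is 10 times the −log10 q rounded down, was 13 in all 3 classes. The lower quartile of the score was 11 in each class, and the weakest autosomal Kdm6bWT peak had a q of 0.091. Many peaks of each class thus lay near the weakest call of the list, so like medians are not read as like enrichment. Within the members the median fold was 3.86 up to 1000 bases from a domain and 3.80 between 4000 and 5000 bases. In gaps it was 3.85, past run ends 3.85 and beside domains that stood alone 3.88. The upper quartile of the score was 16 for members, 15 for peaks on domains and 16 for peaks farther away. The single highest score was 137 among the 1032 members, 1379 among the 2402 peaks on domains and 424 among the 1354 farther away.

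The domains next to members were slightly narrower and less enriched than autosomal domains in general. The 1032 members had 1026 different nearest domains, of which 6 had 2 members. These domains had a median width of 1431 bases and a median fold of 3.04, against 1583 bases and 3.07 for all 88804 autosomal domains. Domains nearest to moved peaks had median widths of 1497 to 1634 bases and median folds of 3.039 to 3.066, so both values of the members' domains, 1431 bases and 3.037, lay just below every moved list. These widths and folds are not given with the floors on the Kdm6bMUT side. The median score of the members' domains was 17, and the moved lists gave 17 to 18, so the score did not set them apart. Domains that a Kdm6bWT peak touched had a median width of 4854 bases, a median fold of 3.23 and a median score of 20, against a median score of 18 for all autosomal domains. Of the 1026 nearest domains, 37 were touched by a Kdm6bWT peak, a share of 3.61% (2.55% to 4.94%), against 2.63% of all autosomal domains and 2.55% to 3.45% of those nearest to moved peaks. The background lies inside the interval, so nothing is read from this share about the members.

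Domains covered less of the surroundings of members than of peaks on domains. The rule sets part of the values below. It asks for a domain within 5000 bases of a member and for none that near to the peaks farther away. Within 50 kb to either side, domains covered a median of 24.9% of the sequence around members (quartiles 12.6% and 41.7%), 46.4% around Kdm6bWT peaks on domains and 0% around peaks farther away, against 10.3% of the autosomes. Around moved peaks beside domains the medians were 25.5% to 31.8%. The members' surroundings were thus slightly less covered than those of each of the 8 moved lists. The margin depends on the move, with moved medians of 30.5% and 31.0% at 20 kb but 26.8% and 25.5% at 200 kb. Moves of 10 or 500 kb and floors on the Kdm6bMUT side are not given for this measure. By place the medians were 32.7% in gaps, 16.7% past run ends and 5.94% beside domains that stood alone. These places also differ by construction, as a gap needs a domain on both sides.

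Members were also nearer to other Kdm6bWT peaks than the peaks farther away were. The median distance to the next Kdm6bWT peak was 80.1 kb for members, 53.4 kb for peaks on domains and 233 kb for peaks farther away. Another Kdm6bWT peak lay within 5000 bases of 80 members, or 7.75% (6.19% to 9.56%), of 9.20% (8.07% to 10.4%) of peaks on domains and of 2.66% (1.87% to 3.66%) of peaks farther away. The nearest such neighbour lay on a domain for 54 of the 80 members, was itself a member for 22 and lay farther from any domain for 4. Members were spread over 947 runs and single domains, 76 of which had at least 2 members, and these 76 held 161 members (15.6%).

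No autosome stood apart in its share of members. Their share of a chromosome's Kdm6bWT peaks ran from 17.8% on chromosome 14 (13.2% to 23.3%) to 27.1% on chromosome 19 (19.3% to 36.1%), and the 95% exact interval of each of the 19 autosomes held the overall 21.6%. Per Mb of span there were between 0.361 members on chromosome 14 and 0.552 on chromosome 19. Chromosome 19, where domains covered the least sequence (5.84%), had the longest median distance, 2133 bases over 32 members. On the other 18 autosomes the medians ran from 757 bases (chromosome 4) to 1397 bases (chromosome 12). In gaps the share ran from 53.1% on chromosome 18 to 73.2% on chromosome 4.

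The extreme members show what the class contains, with positions in mm9 counted from 1. The widest member spanned 3363 bases on chromosome 11 (11789782 to 11793144) with a fold of 3.89, 1978 bases past the end of a run of 4 domains. The next was 3178 bases wide, on chromosome 19 (44801845 to 44805022), had a fold of 3.57 and lay in a gap of 7349 bases. The third was 2689 bases wide, on chromosome 18 (3007930 to 3010618), had a fold of 3.19 and lay beside a single domain of 300 bases with a fold of 1.71. Both of these last values are low for their lists, and the site is near the start of the assembled chromosome. The scores of these 3 members were 13, 11 and 28, against an upper quartile of 16 for all members.

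The 3 members with the highest scores were 458, 495 and 1153 bases wide, all above the members' median width. The member with the top score, 137, was 458 bases wide and had a fold of 6.84. It was found on chromosome 3 (5860502 to 5860959) and lay in a gap of 4912 bases, 1057 bases from a domain of 3208 bases. The runner-up, 495 bases wide on chromosome 3 (34932864 to 34933358), had a score of 90 and the highest fold among members, 7.82. It lay 3448 bases from a single domain of 433 bases. The third, with a score of 49 and a fold of 3.41, spanned 1153 bases on chromosome 9 (3029312 to 3030464), again near a chromosome start, and its nearest domain had a fold of 1.77 and was touched by another Kdm6bWT peak.

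The members nearest to a domain all lay in gaps. A peak of 300 bases on chromosome 14 (102942624 to 102942923) ended at the base before a domain of 1233 bases, the only case with a distance of 0. A peak on chromosome 4 (117978633 to 117978954) lay 2 bases and one on chromosome 13 (113038816 to 113039254) 3 bases from a domain. At the other end, the 3 members just inside the limit lay at 4970 bases (chromosome 15, 38099104 to 38100288), 4946 bases (chromosome 10, 124814670 to 124815644) and 4939 bases (chromosome 13, 96370501 to 96370953), with widths of 1185, 975 and 453 bases and folds of 3.85, 3.88 and 3.64. The 3 peaks just outside it lay at 5021 bases (chromosome 7, 18795983 to 18796282), 5035 bases (chromosome 8, 121750512 to 121750811) and 5067 bases (chromosome 6, 28390148 to 28390897), with widths of 300, 300 and 750 bases and folds of 3.76, 4.59 and 3.63. The widths and folds of these 2 sets overlap.

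No run held many members. The most were 4, in the gaps of a run of 41 domains that spanned 307 kb of chromosome 3 (145756730 to 146063677) and was 62.7% covered by domains. These members were 313 to 1043 bases wide with folds of 3.75 to 4.91, and 4 further Kdm6bWT peaks lay on domains of the run. A run of 19 domains over 106 kb of chromosome 2 (118517803 to 118623475) had 3 members in gaps and 0 Kdm6bWT peaks on its domains. A run of 31 domains over 175 kb of chromosome 3 (145407932 to 145582993), at lower coordinates than the first, had 3 members in gaps and 3 peaks on domains. Members took up 2.17%, 2.57% and 1.66% of the gap bases of these runs. In all, 8 runs had at least 3 members in gaps, and those shown with 3 members come first by chromosome and position.

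**Figure D5:**
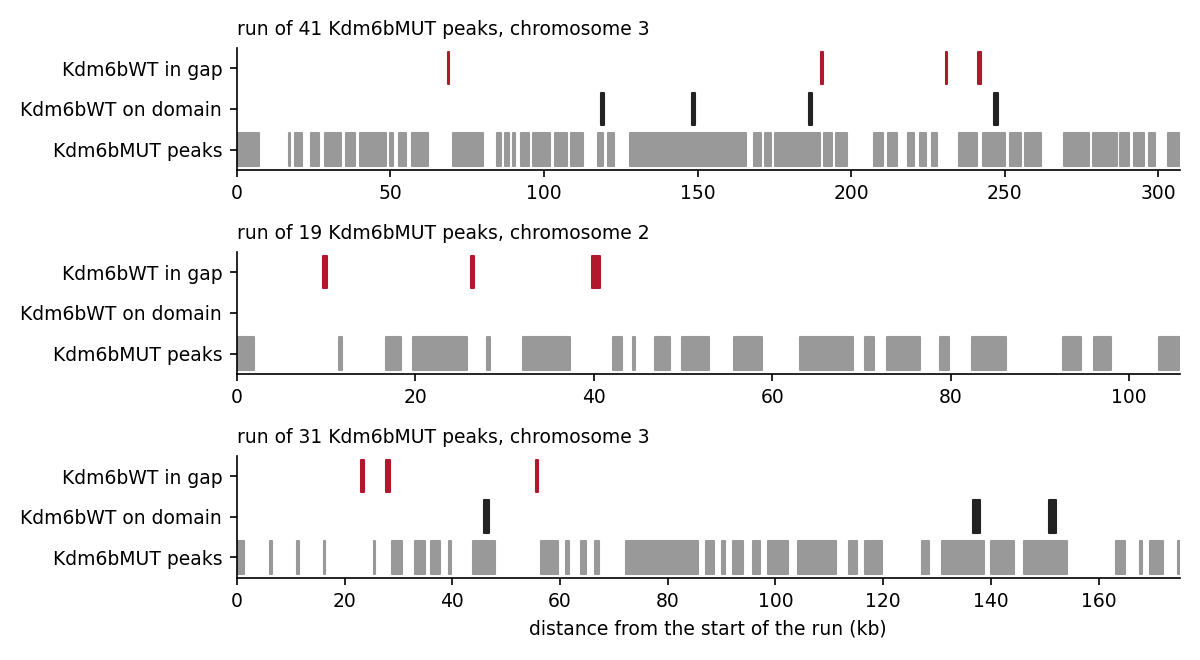
The 3 runs named in the text, drawn to scale from the start of each run (horizontal axis, kb). Grey bars are Kdm6bMUT peaks, black bars Kdm6bWT peaks on them and red bars Kdm6bWT peaks in gaps. The run of 41 domains has 4 red and 4 black bars, that of 19 domains 3 red and 0 black, and that of 31 domains 3 of each.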

How the data were processed

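The 2 lists hold peaks of 1 ChIP library each against input, in mm9. Per the submitters' processing notes the series used Bowtie2 2.2.2 and MACS2 (roles not stated), and its settings are not stated in the labels. Each peak has a score, a fold enrichment (a ratio) and a −log10 p and −log10 q, all as deposited by the authors and used only within a list, except for a −log10 p floor. Groups follow the sample titles. Distances, gaps, widths and moved lists were computed with scipy 1.17.1, pandas 2.3.3 and numpy 2.4.6 under Python 3.11.15, drawn with matplotlib 3.10.9 and tested on simulated data. Moved peaks leaving the span between the first and last peak of a chromosome were dropped. Intervals of shares are exact binomial (95%) and those of medians order-statistic; both reflect counting error alone and treat neighbouring peaks as independent, which they are not. With 1 library per injection no p-value is given. The rule named the 3 widest, 3 strongest and 3 nearest members, 3 on either side of the limit and the 3 runs with most members. The members, lists and tests were chosen with earlier results of these data known. Genes and sequence were not placed, since the reference tables used here are for GRCm38. The RNA-seq samples were not analysed here. Alternatives changed the limit, score floors, width, overlap, chromosome ends, joined gap and move.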

Additional observations from a re-analysis of the deposited data

Results flagged for a closer look

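Some Kdm6bWT peaks beside Kdm6bMUT peaks lay in sequence that the autosomal rule leaves out. On the X chromosome, 14 of 190 Kdm6bWT peaks lay beside a Kdm6bMUT peak by the same limits, a share of 7.37% (95% exact interval 4.09% to 12.1%), and 5 of the 14 lay in gaps. Their median distance was 1393 bases and their median width 696 bases. Of the other X peaks, 62 touched a Kdm6bMUT peak and 114 lay farther away. The share beside domains on the autosomes was 21.6%. No moved lists are given for X, so nothing is read from this difference. Unplaced or mitochondrial sequence held 1 such peak among 13.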

How the results depend on the processing

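No paired analysis was possible because a single ChIP library stands for each injection. Alternative settings gave 47 values: 20 lay within 1.5 times the count or inside the 95% interval reported, and 27 did not. A limit of 2000 or 10000 bases gave a share of peaks off domains of 32.0% or 50.7%, a median distance of 555 or 1167 bases and a share in gaps of 78.9% or 57.0%, by construction. A floor at the median Kdm6bWT score left 558 members with a median width of 355.5 bases, and peaks wider than 300 bases had a median width of 608.5 bases. A floor at the median Kdm6bMUT score gave a share of 32.8% in place and a mean of 23.6% after moves, a median distance of 1637 bases, 42.3% in gaps and a width of 481 bases. Counting a peak as on a domain only when 50% covered gave 51.2%, 459 bases, 70.9% and 532 bases for the same measures in place. Joining gaps of up to 5000 or 20000 bases gave 43.4% or 81.5% in gaps, and moves of 10 or 500 kb a mean share of 46.4% or 19.4%. Chosen after seeing the data, the −log10 p floor on the Kdm6bMUT side gave 31.2% in place and 22.4% after moves, 1700 bases, 39.0% in gaps and 492 bases. Unknown depth limits every count.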
